A study of Mus musculus with 12 samples.

Results

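The response to 4-hydroxytamoxifen (4-OHT) was examined in PUER cells that carried a control vector, by setting the 3 control arrays made 24 h after 4-OHT against the 3 control arrays made before it. These 6 arrays were taken by their titles from 12 in all. PUER is a mouse myeloid line, dependent on interleukin-3, that was made from PU.1-deficient progenitors. Its only PU.1 is a fusion protein with the ligand-binding domain of the estrogen receptor.

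The 3 control cultures after treatment had been held in 2 nM 4-OHT for 24 h, and the 3 control cultures before treatment were harvested without exposure to it. All 6 carried a control retrovirus, had been sorted for the vector's green fluorescence and were expanded afterwards, per the labels. The other 6 arrays came from PUER cells with an shRNA against Hnrnpa0, 3 after 24 h of 4-OHT and 3 before it, and they served here for the estimate of spread and for 1 comparison of responses. Each replicate used a clone of its own for each vector, so the model is a few clones of 1 line. The treatment protocol mentions vehicle beside 4-OHT, but no array is labelled as vehicle-treated and the cultures before 4-OHT are labelled as undifferentiated. So activation of PU.1, other effects of 4-OHT and 24 h of further culture cannot be told apart. In these bulk samples fewer cells that express a gene and less RNA per cell cannot be told apart either.

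PU.1, the product of Spi1, is an ETS-family transcription factor that binds purine-rich DNA around a GGAA core and is needed for the formation of macrophages, granulocytes and B cells. When the fusion protein binds 4-OHT it moves into the nucleus and acts as a transcription factor, and the progenitor-like cells then take on features of mature myeloid cells. Mature macrophages carry receptors that sense microbes, dying cells and lipids, and they engulf and digest what these receptors bind.

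Signals are given as log2 intensity less the 75th percentile of the same array, so that 0 is the level of that percentile and each unit is a doubling. A gene was called when its adjusted p from limma was under 0.05, and "rose" and "fell" are used of called genes. A fold is written as "at least" where one group was not above background on every array, or where bright spots were saturated. Over the 6 arrays the 75th percentile lay between 1196 and 2042 intensity units, and between 50.3% and 55.7% of the spots were well above background. Across 14438 genes with a value on all arrays, r was between 0.990 and 0.995 among the 3 arrays after 4-OHT, between 0.992 and 0.994 among the 3 before it, and between 0.957 and 0.961 across the groups. Genes are not independent replicates. Per the file headers, the 3 arrays before 4-OHT and replicate A after it were on slide 1, and replicates B and C after 4-OHT were on slide 2.

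The identity of the line was checked on markers of blood cells. Coro1a, an actin regulator of leukocytes, read 5.37, 5.31 and 5.01 after 4-OHT and 3.61, 3.46 and 3.30 before it, Vav1, an exchange factor of blood cells, read 2.73, 2.76 and 2.80 after 4-OHT and 3.15, 3.04 and 3.08 before it, and Ikzf1, the Ikaros factor, read 0.15, 0.57 and 0.78 after 4-OHT and -0.40, -0.07 and 0.04 before it. These 3 genes were well above background on all 6 arrays. Ptprc encodes CD45, the phosphatase that marks leukocytes, and it read 2.14, 2.20 and 2.14 after 4-OHT and -6.56, -6.92 and -6.87 before it. All 3 arrays before 4-OHT were below background for it, so the defining CD45 marker was not detected by this probe before treatment. Markers of other cells were few: of 8 fibroblast and epithelial genes 1 passed the filter on dim signal, of 6 B cell genes 2, of 6 natural killer genes 1, of 8 T cell genes 4, of 6 megakaryocyte genes 2 and of 7 erythroid and 7 mast cell genes 4 each. The erythroid factor Klf1 fell at least 3.95-fold, the erythropoietin receptor Epor 2.18-fold, the T cell kinase Lck 2.43-fold and the histamine-forming enzyme Hdc 3.36-fold. The platelet chemokine Ppbp rose at least 1.42-fold, while the platelet receptor part Gp1bb fell 2.15-fold. The remaining measured markers of these cells did not pass. The probe for Spi1 read 1.24, 1.20 and 1.05 after 4-OHT and 1.95, 1.66 and 1.66 before it, and that for Esr1, the estrogen receptor gene, -2.72, -2.84 and -2.66 after 4-OHT and -2.13, -1.90 and -1.84 before it. Both fell (1.51-fold and 1.72-fold), and neither probe was shown to separate the fusion transcript from an endogenous one.

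Stretches of 30 bases around the letters GAGGAAGT, a form of the PU.1 recognition sequence, are shown for 8 genes. They had the largest rises by log2 change among genes whose RefSeq promoter window (build GRCm38.p6) held the whole stretch upstream of the start. Windows on a part of the genome were left out of this listing. The capitals mark the match, read 5′ to 3′ on the strand given.
Lilra6, chr7:3915633-3915662, minus strand: gtcacaccattGAGGAAGTcagagcacggt
Bcl2a1c, chr9:114329910-114329939, plus strand: gagaagaggaaGAGGAAGTggtgtgttgct
Bcl2a1b, chr9:89199114-89199143, plus strand: cagaagaggaaGAGGAAGTggtgtgttgct
Pira2, chr7:3845181-3845210, minus strand: gtcacaccattGAGGAAGTcagagcatggt
Pirb, chr7:3720484-3720513, minus strand: gtcacaccattGAGGAAGTcagagcatggt
Ctsc, chr7:88277923-88277952, minus strand: cgaggtggcctGAGGAAGTtagttagtgac
Mmp12, chr9:7344298-7344327, minus strand: gagtcttggaaGAGGAAGTgggtgaagtgg
Gapt, chr13:110357266-110357295, plus strand: tcctggttcgtGAGGAAGTtgccgtcagat

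The 3 stretches from the chromosome 7 receptor genes Lilra6, Pira2 and Pirb are the same in their capitals and in nearly all flanking letters, as are the 2 from the Bcl2a1 genes, so they are not independent examples. Ctsc, the protease cathepsin C, Gapt, a membrane adaptor, and Mmp12, the macrophage elastase, have unlike flanks. Ctsc, Pira2 and Gapt are named for their promoter match alone. Their rises were at least 15.3-fold, at least 33.9-fold and at least 12.1-fold. On either strand the letters occur in 1052 of 32851 RefSeq windows of 300 bases, or 3.20%. A share over the called genes is not read, because only 79.8% of the RefSeq-named genes called at least 2-fold higher and 75.8% of those called at least 2-fold lower had a window in the table. A match is a string of letters and not a binding site.

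After 24 h of 4-OHT, 6102 of 15063 genes tested were called in control cells (40.5%). Of all genes tested 2631 rose (17.5%) and 3471 fell (23.0%), and the median log2 change was -0.07. By at least 2-fold, 1567 genes changed (10.4%), of which 748 rose (4.97% of all tested) and 819 fell (5.44%). The arrays of the 2 groups did not overlap for 7675 genes (51.0%). Each of the 5923 called genes with a value on replicate A moved the same way within slide 1, where that array is set against the 3 before 4-OHT. These same arrays helped to make the calls, so the shared direction was nearly fixed in advance and does not test the slide. With 1 array after 4-OHT, slide 1 alone called 1517 genes higher and 1834 lower, and with slide as a fixed block over all 12 arrays 5467 genes were called, 47.3% of them higher, against 43.1% without the block. Only 4502 of the 6102 calls were among them, and treatment and slide overlap in part.

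With slide as a fixed block, the calls lost among the named genes were those of Abca8a, Atf2, Fos, Fzd1, Fzd5, Ikzf1, Itga4, Jaml, Jun, Lat, Pde4d, Pik3ca, Rpl3l, Tfeb, Tlr7 and Zbtb46, with adjusted p between 0.0532 (Tlr7) and 0.328 (Ikzf1). Without 1 or more of the 6 control arrays in turn, Atf2, Ikzf1, Jun, Lat, Pik3ca, Pik3cb, Rpl27a, Slc7a2 and Tnfsf12 lost the call, with adjusted p up to 0.146 (Tnfsf12 without replicate A after 4-OHT). Adgrv1, described in the closing section, lost it too. Leaving out replicate B before 4-OHT gave Havcr2 a log2 change of 4.57, against 5.18 with it. Leaving out replicate C after 4-OHT gave Spon2 a log2 change of -4.09, against -4.69 with it, and Vcam1 -1.80, against -2.39. A gene is represented by its brightest probe, and other probes can give a smaller or larger change. The other probe of Fgf11 changed by -0.06 on the log2 scale, against -2.72 on the one used, that of Ltbp3 by -0.31 against -2.76, that of Csf1r by 0.93 against 3.35, that of Cx3cr1 by 2.49 against 6.35 and that of Fcer1g by 4.31 against 2.17. The 4 other probes of Dock4 gave between 1.75 and 3.88, against 5.71. Changes near 0 came from the other probes of Il15 (0.05), Fzd5 (0.06) and Klf5 (-0.13).

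Several genes besides C-type lectin and Bcl2a1 members were among the 20 largest rises. CD45 rose at least 114-fold on its brightest probe (log2 change 8.94, SE 0.12, adjusted p = 1.57e-11), while its other 2 probes changed by 2.20 and 5.59 on the log2 scale. Il1rl2, the receptor for interleukin-36, read 2.26, 2.05 and 2.05 after 4-OHT and -6.64, -6.96 and -6.94 before it and rose at least 111-fold. Sla, a Src-like adaptor that dampens signals from antigen receptors, read 3.57, 3.42 and 3.37 after 4-OHT and -3.08, -3.23 and -3.53 before it and rose 106-fold. The 3 arrays of each group lay within a narrow band for all of these genes, far from the other group, though non-overlap was a condition for listing them. Marchf1, a ubiquitin ligase that removes MHC class II from the surface, read 1.64, 1.54 and 1.48 after 4-OHT and -6.75, -4.53 and -5.51 before it and rose at least 71.5-fold. Plet1, a surface protein of epithelia and some myeloid cells, read 1.29, 1.00 and 1.13 after 4-OHT and -3.96, -4.77 and -4.46 before it and rose at least 46.2-fold. Slc11a1, which pumps metal ions out of the phagosome, had 2 usable arrays after 4-OHT and read 2.88 and 3.14 after 4-OHT and -2.49, -2.53 and -2.47 before it. It rose 45.5-fold. Tnni2, the inhibitory troponin of fast skeletal muscle, was also among the largest rises, at 2.81, 2.67 and 2.54 after 4-OHT and -3.64, -3.45 and -3.73 before it, a change of 77.8-fold.

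Tgm2, a protein-crosslinking transglutaminase, was among the 20 largest falls. It read 0.23, 0.45 and 0.33 after 4-OHT and 3.75, 4.24 and 4.32 before it and fell 13.6-fold (log2 change -3.77, SE 0.13, adjusted p = 7.59e-09; -3.88 within slide 1). After 4-OHT it kept a signal near the 75th percentile. Fbp1, the gluconeogenic fructose bisphosphatase, fell 13.2-fold. Camp, the cathelicidin antimicrobial peptide of granulocyte granules, read 0.40, 0.31 and -0.50 after 4-OHT and 3.11, 3.82 and 3.07 before it and fell 9.61-fold. Rgcc, a cell cycle regulator with 2 usable arrays in each group, read 2.01 and 1.78 after 4-OHT and 5.13 and 5.12 before it, among the brightest of the genes that fell, and fell 9.39-fold. Egln3, an oxygen-sensing prolyl hydroxylase, fell at least 9.45-fold. Other falls were in Dok7, an adaptor of the muscle-specific kinase (12.9-fold), Spon2, a secreted matrix protein (at least 12.4-fold), the Ly6-domain gene Lypd6b (11.8-fold), the zinc finger gene Zbtb8a (11.6-fold) and the muscle myomesin Myom3 (9.63-fold).

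**Figure D1:**
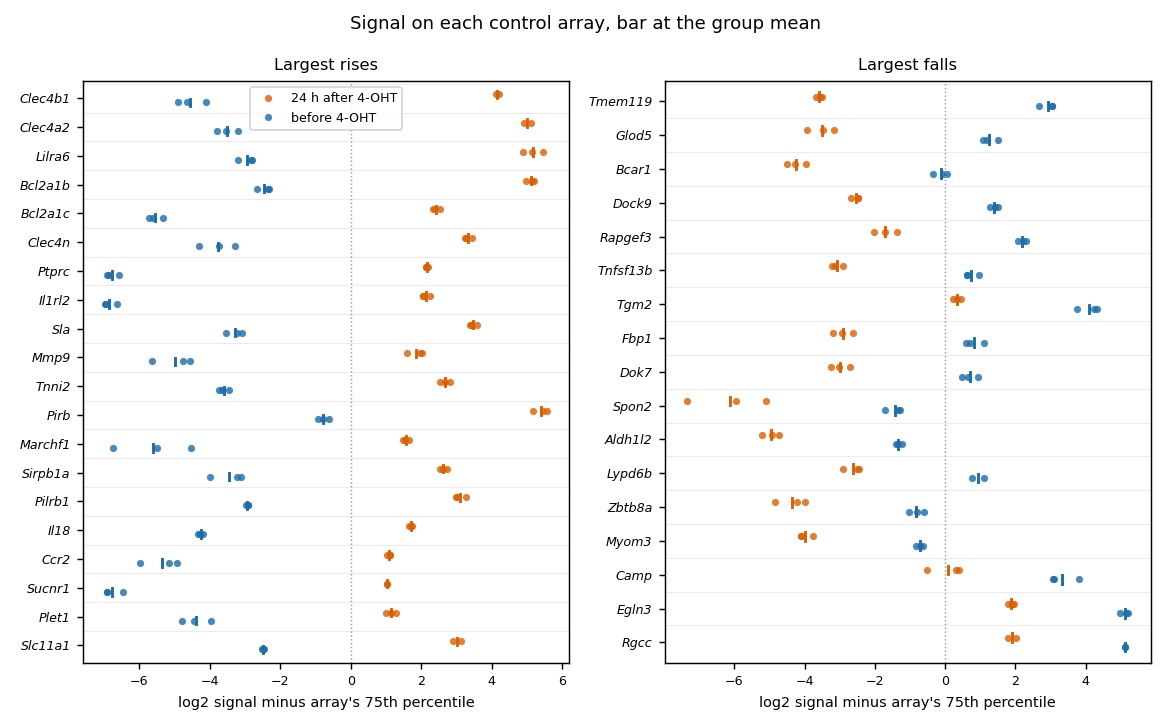
The x axis gives log2 signal less the array's 75th percentile for the 20 largest rises (left) and 17 of the 20 largest falls (right); each orange point is 1 control array 24 h after 4-OHT, each blue point 1 control array before it, and bars mark group means. The orange and blue points are apart in every row because genes were shown only where the groups did not overlap. Ptprc averages 2.16 after 4-OHT against -6.79 before it.

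Gene families and pathways were then read as lists, which were written with earlier results of these data known. Only members that passed the filter on dim signal were counted. A gene dark in 1 group could pass only through arrays where it was high, so its direction follows in part from the filter. The 82 lists hold 3724 distinct genes, of which 2517 were tested; 597 of these rose and 654 fell. Rises outnumbered falls in the lists of immunoglobulin-like, C-type lectin, cytokine and phagocytic receptors, of innate sensors and of phagosome genes among others. Falls outnumbered rises in the homeobox, ETS, clock, AP-1, serpin, histone, TGF-beta and Kruppel-like lists among others. The margin was small for adhesion GPCRs (6 falls, 5 rises) and for selectin and immunoglobulin adhesion molecules (9 falls, 7 rises). Over all genes tested falls also outnumbered rises (3471 and 2631). Genes of 1 list can share regulation and probes, so each count describes these arrays only and is read beside the 17.5% and 23.0% over all genes.

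**Figure D2:**
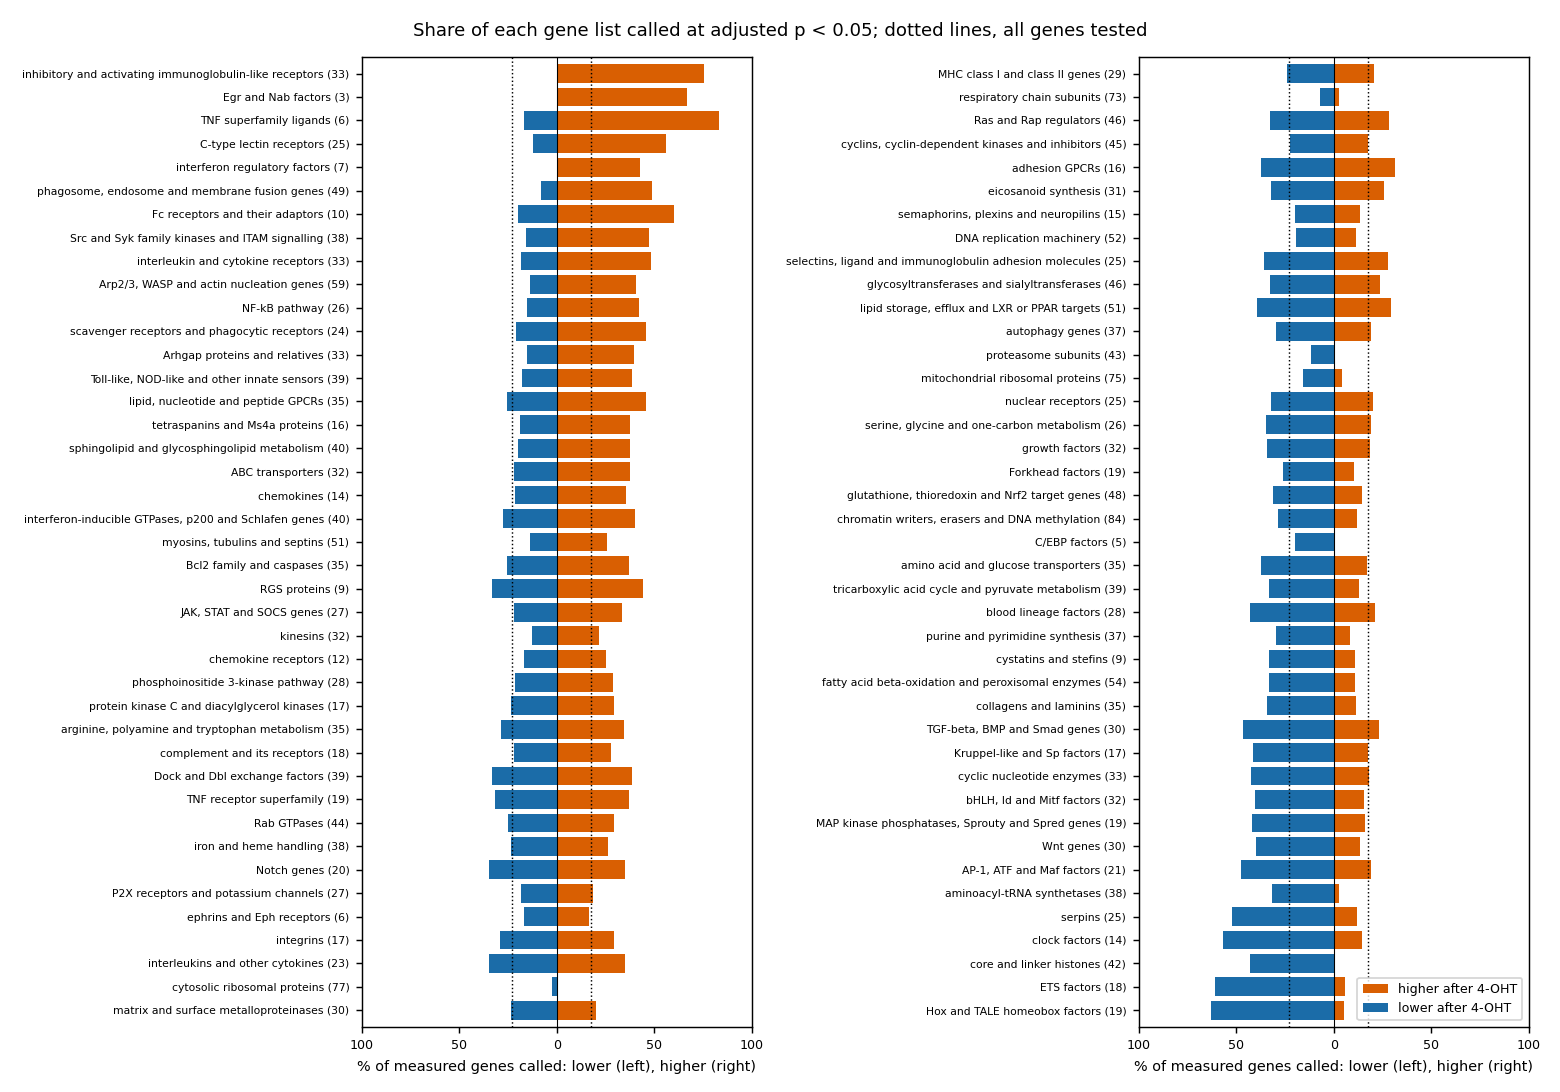
Each bar is 1 of 82 gene lists, with the number of measured members in brackets; orange bars to the right give the percentage called higher after 4-OHT and blue bars to the left the percentage called lower. Dotted lines mark the shares over all genes tested, 17.5% higher and 23.0% lower. The bars run farthest to the right for TNF superfamily ligands (5 of 6 called higher) and immunoglobulin-like receptors (25 of 33). They run farthest to the left for the Hox and TALE list (12 of 19 called lower).

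The AP-1 family, whose Fos, Jun, Atf and Maf members act early after growth and stress signals, fell more often than it rose. Of 21 measured members of 29 listed, 4 rose, 10 fell and 7 were not called (median log2 change -0.19). Fosb read -2.61, -3.94 and -4.07 after 4-OHT and -1.42, -1.28 and -0.79 before it and fell 5.19-fold. Junb, with 2 usable arrays in each group, read 3.27 and 3.12 after 4-OHT and 5.32 and 5.20 before it and fell 4.19-fold. Neither gene had an array after 4-OHT that reached the level of an array before it, which the rule for naming genes required. Maff, a small Maf protein, fell 4.08-fold, Fosl1 3.37-fold, the stress factor Atf3 3.20-fold and Fos 1.88-fold. Batf and Batf3, AP-1 members of lymphoid and dendritic cells, went the other way and rose 2.49-fold and 2.05-fold. Jun and Atf2 rose by small amounts, 1.17-fold and 1.22-fold. The stress regulators Nfe2l2 and Atf6 did not pass, at log2 changes of -0.19 and -0.08.

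Among ETS factors, the family of PU.1 itself, 1 rose and 11 fell of 18 measured (26 listed, median -0.54). Etv1 read -1.53, -1.51 and -1.57 after 4-OHT and 0.08, 0.25 and 0.22 before it and fell 3.29-fold, and Ets1, a factor of lymphoid cells, read 0.93, 0.96 and 0.94 after 4-OHT and 2.19, 2.38 and 2.35 before it and fell 2.57-fold. Fli1, which acts in megakaryocytes and stem cells, fell 2.37-fold, Ets2 1.89-fold, Etv6 1.88-fold and Etv4 1.71-fold. Etv5 was the exception, with -2.55, -2.36 and -2.41 after 4-OHT and -3.66, -3.52 and -3.31 before it, and rose 2.08-fold. Elf4, Elf1 and Gabpa, broadly used members, did not pass, at 0.21, -0.19 and -0.10.

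Homeobox genes of the Hox and TALE classes, which hold progenitors in an immature state, gave a like count: of 19 measured, 1 rose, 12 fell and 6 were not called (median -0.40). Hoxa9, the leukaemia-linked member, read -0.56, -0.59 and -0.66 after 4-OHT and 0.23, 0.35 and 0.26 before it and fell 1.85-fold. Hhex, a homeobox gene outside these 2 classes that the list also holds, fell 1.87-fold. Hoxd9 fell at least 1.87-fold, Hoxa7 1.82-fold, Tgif1 1.77-fold and Hoxc4 1.69-fold. Meis3, a cofactor of Hox proteins, rose at least 1.78-fold. The factors of early blood lineages comprised 28 measured genes, of which 6 rose, 12 fell and 10 were not called (median -0.13). Gfi1, a transcriptional repressor, read 2.65, 2.57 and 2.42 after 4-OHT and 5.01, 4.96 and 4.99 before it and fell at least 5.42-fold. Sox4 fell 2.86-fold, Gata2, a stem cell and mast cell factor, 2.62-fold, Runx2 2.42-fold and the germinal centre repressor Bcl6 2.16-fold. Trps1 rose 2.05-fold, Zbtb46, a dendritic cell factor, at least 1.65-fold and Tcf7l2, a Wnt effector, 1.53-fold. Runx1 and its partner Cbfb did not pass (-0.08 and 0.20). Of 5 C/EBP genes only Cebpa, which drives granulocyte formation, was called, at 2.86, 2.88 and 2.95 after 4-OHT and 3.80, 3.80 and 3.98 before it; it fell 1.95-fold, and Cebpb had a log2 change of -0.15 that did not pass.

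Kruppel-like and Sp factors numbered 17 measured, of which 3 rose, 7 fell and 7 were not called (median -0.19). Klf9 read 0.61, 0.76 and 0.91 after 4-OHT and 2.05, 1.92 and 2.07 before it and fell 2.39-fold, Klf5 fell 2.28-fold and Klf11 2.01-fold. Klf6, a factor of activated macrophages, rose at least 1.61-fold. In the clock list, whose genes keep daily rhythm, 14 were measured, and 2 rose, 8 fell and 4 were not called (median -0.51). Nfil3, a repressor linked to the clock, read 1.97, 1.82 and 1.81 after 4-OHT and 3.32, 3.34 and 3.02 before it and fell 2.56-fold. The repressor Ciart fell 3.97-fold, Per1 2.19-fold and Arntl, the core activator also called Bmal1, 1.83-fold. Its partner Clock rose 1.47-fold with 1 of 3 other probes going the opposite way, and Cry1 rose 1.94-fold. The arrays were taken at a single time after treatment, so position in a daily cycle was not measured. Among basic helix-loop-helix genes, 5 rose, 13 fell and 14 were not called of 32 measured (median -0.25). Mxd1, a partner of Max that opposes Myc, fell 2.92-fold, Bhlhe40 2.55-fold and Bhlhe41 2.27-fold. Tfec, Tfe3 and Tfeb, relatives of Mitf that drive lysosome genes, rose 1.59-fold, 1.78-fold and 1.37-fold. Of 19 forkhead genes 2 rose, 5 fell and 12 were not called, with no change of 2-fold or more.

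Nuclear receptors, which bind hormones and lipids, divided into a few large rises and several falls: of 25 measured, 5 rose, 8 fell and 12 were not called (median -0.25). Vdr, the vitamin D receptor, read -0.35, -0.31 and -0.10 after 4-OHT and -5.50, -5.33 and -4.97 before it and rose at least 21.5-fold (log2 change 5.01, SE 0.31, adjusted p = 3.93e-07). Nr4a1, an orphan receptor of non-classical monocytes, read 0.85, 0.71 and 0.72 after 4-OHT and -1.90, -2.23 and -2.39 before it and rose 7.64-fold. Rara, a retinoic acid receptor, rose at least 4.43-fold. Nr1h3, the oxysterol-sensing liver X receptor alpha, fell 2.47-fold, Pparg 1.96-fold and the clock-linked Nr1d2 1.47-fold. Rxra, the common partner of these receptors, did not pass (-0.30).

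Interferon regulatory factors gave 3 calls of 7 measured, all upwards. Irf8, which directs monocyte and dendritic cell formation, read -2.28, -2.22 and -2.13 after 4-OHT and -3.43, -3.39 and -3.49 before it and rose 2.34-fold. Irf7, the amplifier of type I interferon, rose at least 2.70-fold and Irf9, a partner of Stat proteins, 2.46-fold, while Irf1, Irf2 and Irf3 did not pass (-0.07, -0.06 and 0.15). In the NF-kB pathway 11 rose, 4 fell and 11 were not called of 26 measured (median 0.07). Map3k14, the NF-kB inducing kinase, read -0.06, 0.18 and 0.30 after 4-OHT and -1.71, -1.70 and -1.78 before it and rose 3.65-fold, and Relb rose 2.26-fold. Traf5, an adaptor of TNF receptors, rose at least 4.67-fold, and the inhibitors Nfkbie and Nfkbid 3.30-fold and 2.12-fold. Ikbke, a kinase of the interferon response, read -2.29, -2.02 and -2.08 after 4-OHT and 0.01, -0.12 and -0.01 before it and fell 4.25-fold, and the nuclear inhibitor Nfkbiz fell 2.32-fold. Among JAK, STAT and SOCS genes 9 rose, 6 fell and 12 were not called of 27. Jak2, the kinase of the interleukin-3 receptor, read 3.14, 3.23 and 3.21 after 4-OHT and 1.35, 1.53 and 1.42 before it and rose 3.38-fold. Ptpn6, the phosphatase SHP-1 that acts on inhibitory receptors, rose 2.94-fold. Pim3, a survival kinase, fell 2.92-fold and the feedback inhibitor Socs3 1.81-fold, while Socs1 rose 1.68-fold. Egr2, a factor of macrophage fate, rose 7.04-fold and its corepressor Nab2 1.48-fold, while Nab1 did not pass (-0.15).

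**Figure D3:**
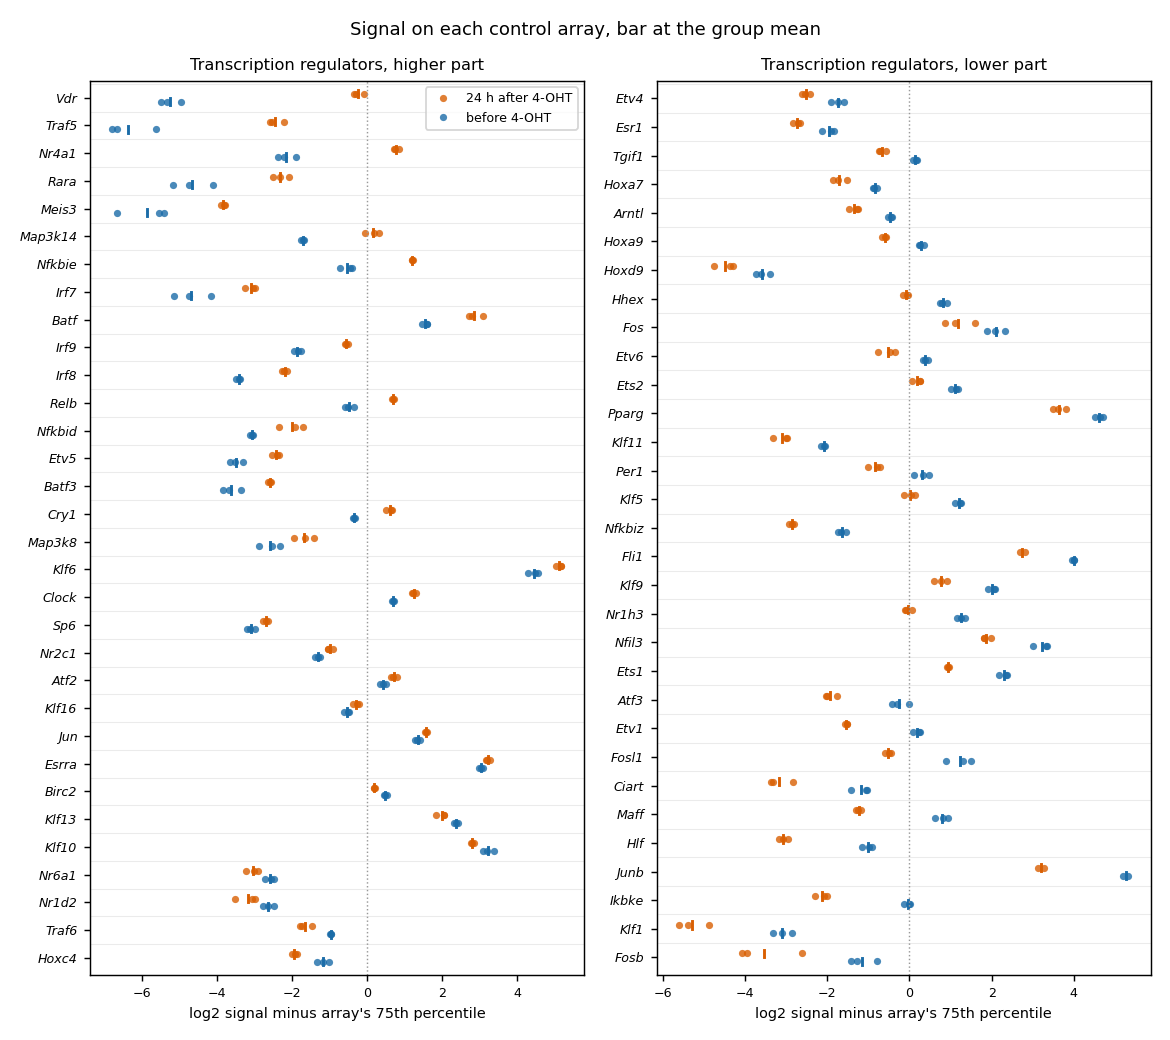
The x axis gives log2 signal less the array's 75th percentile for 63 called transcription regulators ordered by change; orange points are control arrays 24 h after 4-OHT, blue points control arrays before it, and bars group means. The separations are widest at the ends, with Vdr at the top and Fosb at the bottom.

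Genes of secreted signals moved in both directions. Of 23 interleukin and cytokine genes measured (59 listed), 8 rose, 8 fell and 7 were not called (median -0.08). Il18, a cytokine matured by the inflammasome, read 1.75, 1.66 and 1.70 after 4-OHT and -4.19, -4.26 and -4.32 before it and rose 62.4-fold. Il15 rose 2.16-fold, Ebi3, a shared subunit of several interleukins, 2.51-fold, and Il1rn, the natural antagonist of interleukin-1, 2.47-fold. Il34, the second ligand of the Csf1 receptor, read -0.88, -1.10 and -0.98 after 4-OHT and 1.19, 1.19 and 1.15 before it and fell 4.47-fold. Osm, oncostatin M, read -1.38, -1.46 and -1.51 after 4-OHT and 0.60, 0.77 and 0.80 before it and fell 4.53-fold. In both of these genes the 3 arrays after 4-OHT lay below all 3 before it, which the rule for naming genes required. Tslp fell at least 3.55-fold, Ctf1 3.95-fold and Il12a 1.92-fold. All 6 measured ligands of the TNF family were called. Ltb, lymphotoxin beta, read -0.27, -0.44 and -0.36 after 4-OHT and -3.47, -3.43 and -3.77 before it and rose 9.19-fold. Tnf rose 6.64-fold, Tnfsf13, the plasma cell factor April, 2.57-fold, Tnfsf14 1.48-fold and Tnfsf12 1.30-fold. Tnfsf13b, the B cell factor Baff, went against them, at -3.14, -2.91 and -3.22 after 4-OHT and 0.64, 0.96 and 0.62 before it, and fell 14.2-fold, while its other probe changed by -0.67 on the log2 scale.

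Chemokine genes were seldom above background: 14 of 37 were measured, and 5 rose, 3 fell and 6 were not called. Beside Ppbp, the neutrophil attractants Cxcl2 and Cxcl3 rose at least 1.82-fold and at least 1.82-fold, and Ccl2, the ligand of Ccr2, 1.78-fold. Cx3cl1, the ligand of Cx3cr1, fell at least 3.21-fold, Ccl4 2.13-fold and Ccl24 1.89-fold. Among growth factors 6 rose, 11 fell and 15 were not called of 32 measured. Pdgfa rose 2.82-fold and Ccn3 3.38-fold, while Fgf11 fell 6.57-fold, the angiogenic Vegfa 4.46-fold and Nrg4, a ligand of the receptor ErbB4, 4.40-fold. In the TGF-beta and BMP list 7 rose, 14 fell and 9 were not called of 30 measured (median -0.39). Tgfbi, a matrix protein induced by TGF-beta, read 0.06, 0.20 and 0.28 after 4-OHT and -3.55, -3.85 and -3.76 before it and rose 14.9-fold, and the receptor Tgfbr1 and the ligand Tgfb1 rose 1.90-fold and 1.75-fold. Ltbp3, which holds latent TGF-beta in the matrix, read -3.95, -3.57 and -3.83 after 4-OHT and -1.13, -0.87 and -1.07 before it and fell 6.80-fold. Smad7, a feedback inhibitor, fell 3.04-fold, Fst, which binds activin, 2.45-fold, Inhba, an activin subunit, 3.09-fold and Gdf15, a stress-induced factor, 3.32-fold. Of 30 Wnt pathway genes 4 rose, 12 fell and 14 were not called (median -0.20). The receptors Fzd1 and Fzd4 fell 2.38-fold and 2.18-fold, Lrp5 2.38-fold and Porcn, which lipidates Wnt proteins, 2.47-fold, while Fzd5 and Fzd2 rose at least 1.6-fold and 2.03-fold. Among Notch genes 7 rose, 7 fell and 6 were not called of 20. Lfng, a glycosyltransferase of Notch, rose 5.14-fold and Notch2 1.92-fold, while Notch1 fell 1.76-fold, Notch4 2.75-fold and the ligand Jag1 2.51-fold.

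Secreted proteases and their inhibitors held some of the widest changes. Mmp9, gelatinase B, read 1.6, 2.01 and 1.97 after 4-OHT and -4.76, -4.56 and -5.63 before it and rose at least 88.9-fold (log2 change 6.85, SE 0.28). Mmp8, the neutrophil collagenase, read 0.18, 0.23 and 0.01 after 4-OHT and -3.02, -2.55 and -3.45 before it and rose 8.86-fold, and Mmp19 rose 3.07-fold. Adamts2, which trims procollagen, fell 5.50-fold, Mmp11 2.34-fold and the inhibitor Timp2 2.03-fold, while Timp1 rose 1.76-fold. Over the metalloproteinase list 6 rose, 7 fell and 17 were not called of 30 measured. Of 25 measured serpins, inhibitors that trap serine proteases, 3 rose, 13 fell and 9 were not called (median -0.58). Serpinb12 read 0.62, 0.30 and 0.48 after 4-OHT and -6.53, -6.93 and -6.93 before it and rose at least 35.4-fold. Falls included Serpinb10, of myeloid cells (3.57-fold), Serpinb1b and Serpinb1c, close relatives of the neutrophil elastase inhibitor (3.02-fold and 3.18-fold), and the collagen chaperone Serpinh1 (at least 2.99-fold). Among cystatins Cst7, an inhibitor of cathepsin C, fell 3.05-fold, and 1 rose, 3 fell and 5 were not called of 9. Probes of serpin and stefin copies that lie close in sequence were not tested for cross-hybridisation. Collagens, laminins and related matrix genes gave 12 falls and 4 rises of 35 measured. Fn1, fibronectin, rose at least 2.46-fold, whereas the thrombospondins Thbs4 and Thbs1 fell 4.93-fold and at least 3.61-fold and Col5a3 4.61-fold. In the complement list 5 rose, 4 fell and 9 were not called of 18. Cfp, properdin, which stabilises the alternative pathway, read 5.39, 5.58 and 5.11 after 4-OHT and 1.99 and 1.93 before it and rose at least 10.5-fold. C1ra, a protease of the classical pathway, rose at least 5.18-fold, and Clu, clusterin, fell 2.64-fold.

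Receptors with immunoglobulin-like domains, which set the threshold of myeloid cell activation through paired inhibitory and activating members, moved in 1 direction: of 33 measured (46 listed), 25 rose, 0 fell and 8 were not called, and 21 rose at least 2-fold (median 2.09). Pira6, an activating paired receptor, read 1.84, 1.80 and 1.93 after 4-OHT and -6.78, -7.06 and -6.96 before it and rose at least 92.8-fold. Pirb, its inhibitory counterpart, read 5.46, 5.55 and 5.18 after 4-OHT and -0.80, -0.61 and -0.93 before it and rose at least 72.2-fold. Pirb already stood near the 75th percentile before 4-OHT, while Pira6 was below background on those arrays. Receptors dark before 4-OHT, as Pira6 was, could pass the filter only through arrays where they were high. The count of rises and the median are therefore set in part by the filter. Sirpb1a, an activating relative of the Sirpa receptor, read 2.74, 2.62 and 2.52 after 4-OHT and -3.23, -3.11 and -4.0 before it and rose 67.3-fold. Pilrb1, an activating paired receptor of type 2, read 3.26, 2.98 and 3.02 after 4-OHT and -2.92, -2.96 and -2.92 before it and rose 65.0-fold. Trem2, which senses lipids and debris in macrophages, read 3.66, 3.59 and 3.73 after 4-OHT and -1.64, -1.44 and -1.67 before it and rose 37.8-fold. Sirpa, the receptor of the Cd47 signal that restrains engulfment, rose 1.45-fold and Cd200r1 1.62-fold, 2 small changes picked out after their values were seen. Cd33, Cd84 and Cd47 itself did not pass (0.20, -0.08 and -0.18). Several of these genes lie in clusters of near-identical copies, and cross-hybridisation between their probes was not tested.

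Cytokine receptors showed 16 rises, 6 falls and 11 that did not pass among 33 measured (median 0.32). Genes of the interleukin-1 receptor family led the rises. Il1r2, the decoy receptor, read 0.98, 0.83 and 0.95 after 4-OHT and -4.56, -4.27 and -4.04 before it and rose at least 37.0-fold. Il1r1, the signalling receptor, read -0.93, -1.10 and -1.01 after 4-OHT and -6.71, -6.57 and -5.71 before it and rose at least 12.7-fold, and Il1rl1, the receptor of interleukin-33, read -1.37, -1.32 and -1.16 after 4-OHT and -6.28, -6.54 and -6.71 before it and rose at least 10.5-fold. Before 4-OHT, Il1r1 and Il1rl1 were both below background, as Il1rl2 was. Ifngr2, the second chain of the interferon gamma receptor, read 2.96, 2.85 and 2.81 after 4-OHT and 0.91, 1.07 and 1.20 before it and rose 3.51-fold, and Csf1r, the receptor of macrophage colony-stimulating factor, at least 2.67-fold. Il12rb1, shared by several interleukin receptors, fell 4.17-fold, the interferon lambda receptor Ifnlr1 3.82-fold, the stem cell factor receptor Kit 3.79-fold, Il20rb 2.52-fold and the granulocyte receptor Csf3r 1.47-fold. Within the TNF receptor family 7 rose, 6 fell and 6 were not called of 19. Tnfrsf9, the costimulatory receptor 4-1BB, read -6.85, -6.31 and -7.21 after 4-OHT and -2.31, -1.98 and -2.44 before it and fell at least 7.14-fold. Tnfrsf1b, the second TNF receptor, read 2.94, 2.65 and 2.51 after 4-OHT and 3.89, 3.72 and 3.69 before it and fell 2.10-fold. Tnfrsf13b, which binds the ligands Baff and April, rose 3.02-fold, Tnfrsf14 2.55-fold, Relt 2.36-fold and Tnfrsf25 at least 2.85-fold.

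**Figure D4:**
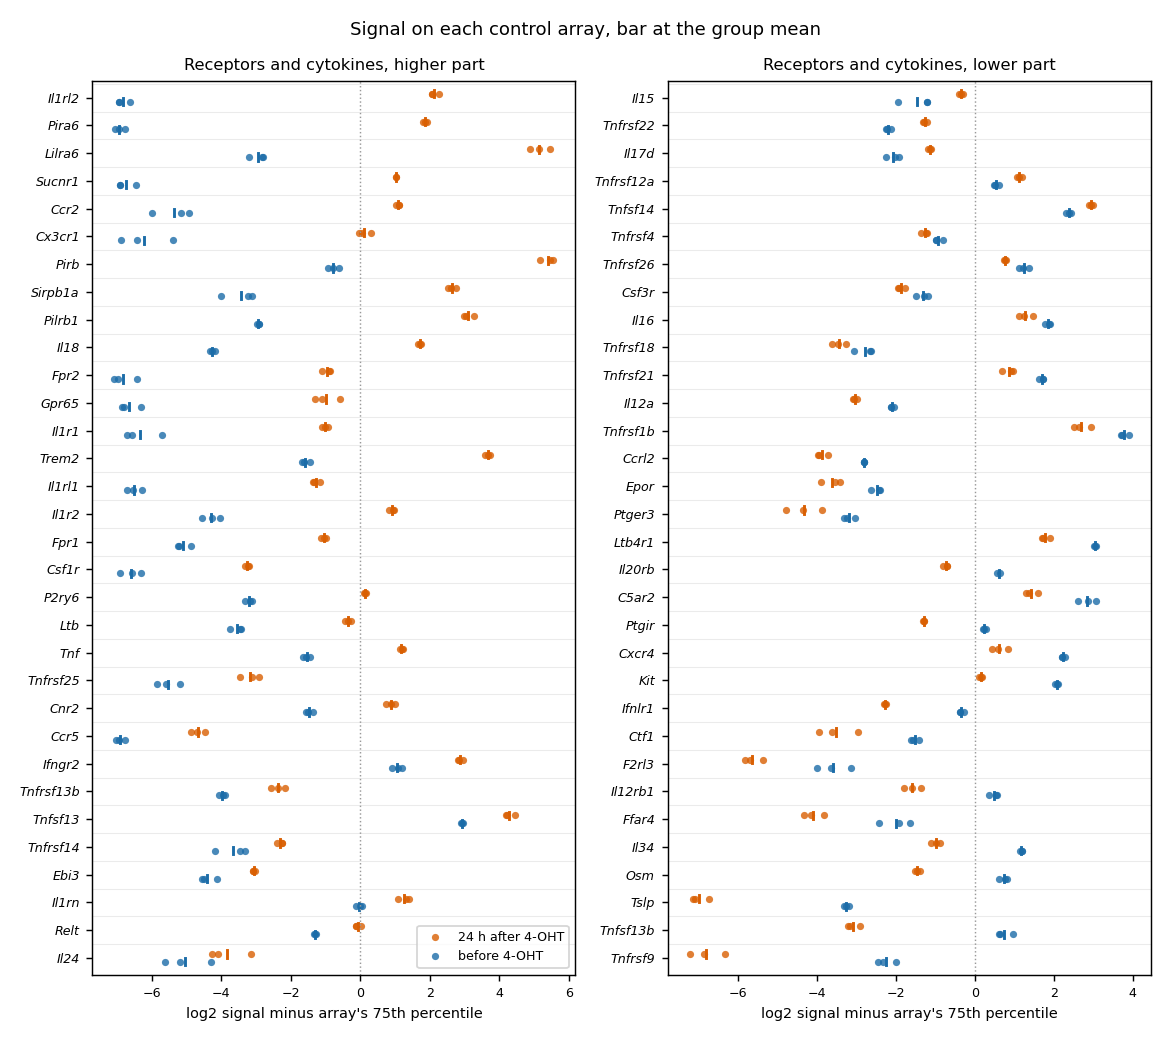
The x axis gives log2 signal less the array's 75th percentile for 64 called receptor and cytokine genes ordered by change; orange points are control arrays 24 h after 4-OHT, blue points control arrays before it, and bars group means. Il1rl2, Pira6, Lilra6 and Sucnr1 head the rises, and Tnfrsf9, Tnfsf13b and Tslp close the falls.

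Of 35 G protein-coupled receptors for lipids, nucleotides and peptides, 16 rose, 9 fell and 10 were not called (median 0.02). Sucnr1, the succinate receptor, had 2 usable arrays after 4-OHT and read 1.02 and 1.02 after 4-OHT and -6.46, -6.91 and -6.91 before it, a rise of at least 51.9-fold. Fpr2 and Fpr1, receptors of bacterial formyl peptides, rose at least 13.2-fold and at least 12.4-fold. Gpr65, which senses acid, read -0.58, -1.10 and -1.31 after 4-OHT and -6.32, -6.85 and -6.79 before it and rose at least 12.9-fold. P2ry6, a receptor of uridine diphosphate that prompts engulfment, read 0.14, 0.11 and 0.16 after 4-OHT and -3.17, -3.11 and -3.32 before it and rose 10.1-fold. All 3 of its arrays after 4-OHT were near the 75th percentile, and those before it were far below. Cnr2, the cannabinoid receptor of immune cells, rose 5.11-fold. Ffar4, a long-chain fatty acid receptor, fell 4.30-fold, the prostacyclin receptor Ptgir 2.89-fold with its other probe going the opposite way, C5ar2, a second receptor of complement C5a, 2.69-fold and the leukotriene B4 receptor Ltb4r1 2.42-fold. Of 12 chemokine receptors 3 rose, 2 fell and 7 were not called. Ccr2, which brings monocytes out of the marrow, read 1.02, 1.10 and 1.12 after 4-OHT and -5.17, -5.99 and -4.92 before it and rose at least 54.1-fold. Cx3cr1, the fractalkine receptor, read -0.04, 0.06 and 0.30 after 4-OHT and -6.43, -5.39 and -6.89 before it and rose at least 27.6-fold. Cxcr4, which holds progenitors in the marrow, read 0.84, 0.58 and 0.43 after 4-OHT and 2.22, 2.21 and 2.28 before it and fell 3.07-fold, and the non-signalling Ccrl2 fell 2.11-fold. Ccr1, Cxcr2 and Ccr3 did not pass (0.90, 0.05 and 0.25). Adhesion receptors of this class divided, with 5 rises, 6 falls and 5 not called of 16. Adgrg1 read 0.04, 0.07 and 0.28 after 4-OHT and -2.07, -2.04 and -2.17 before it and rose 4.68-fold, whereas Adgrd1 fell at least 4.94-fold and Adgrg3 at least 3.33-fold.

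Of 38 measured genes of Src and Syk family kinases and their adaptors, 18 rose, 6 fell and 14 were not called (median 0.39). Tyrobp, the adaptor DAP12 that carries the activating motif for Trem2, Sirpb1a and Pilrb1, read 2.60, 2.45 and 2.13 after 4-OHT and -2.89, -2.55 and -3.19 before it and rose 38.5-fold. Nfam1, a membrane protein with the same kind of motif, read 1.69, 1.66 and 1.85 after 4-OHT and -3.02, -3.14 and -3.03 before it and rose 27.8-fold. Fcer1g, the shared Fc receptor chain, read 0.18, -0.05 and 0.00 after 4-OHT and -2.07, -2.15 and -2.17 before it and rose 4.52-fold. Before 4-OHT all 3 adaptors were below the 75th percentile on every array. Sh3bp2, an adaptor of Syk, rose 3.72-fold. Lck, Lat and Ubash3a, best known in T cells, fell 2.43-fold, 1.40-fold and 3.40-fold, as did Hcst, the adaptor DAP10 (1.41-fold). Of 10 Fc receptor genes 6 rose, 2 fell and 2 were not called. The log2 changes in this list ran up to 6.50, and the member with that change is not reported here. Among the others, Fcgrt, the neonatal receptor that recycles IgG, rose 3.03-fold, Fcgr2b 1.52-fold and Fcgr3 1.48-fold, while Fcgr4 fell 2.19-fold.

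Receptors of engulfment followed with 11 rises, 5 falls and 8 not called of 24 measured (median 0.60). Mertk, which binds dying cells, read -2.05, -1.51 and -1.30 after 4-OHT and -6.23, -5.78 and -6.76 before it and rose at least 8.33-fold. Havcr2, the receptor TIM-3, rose at least 15.7-fold, Cd36 at least 3.79-fold and Mfge8, a bridge to dying cells, 4.28-fold. Stab1, a scavenger of sinus endothelium and some macrophages, fell 3.73-fold and the oxidised lipid receptor Olr1 1.85-fold. Of 39 innate sensor genes 15 rose, 7 fell and 17 were not called. Tlr8 read -2.31, -2.23 and -2.14 after 4-OHT and -6.66, -6.93 and -6.25 before it and rose at least 5.47-fold. Sting1, the sensor of cyclic dinucleotides, read 1.99, 1.61 and 1.74 after 4-OHT and -0.71, -0.81 and -0.53 before it and rose 5.52-fold. Ly96, the partner of Tlr4, rose 4.44-fold, Tlr4 itself 2.23-fold and Nlrp3 2.93-fold. Irak2 and Irak3, kinases below Toll-like receptors, fell 2.52-fold and 1.54-fold, as did Tlr7 (1.41-fold) and the adaptor Ticam1 (1.41-fold). C-type lectins gave 14 rises and 3 falls of 25 measured. Beyond the members with the largest changes, Clec4a3 rose at least 13.3-fold, Klra2, a relative of natural killer receptors, at least 5.55-fold and the scavenger Colec12 3.0-fold, while Clec11a, a growth factor of blood progenitors, fell 3.13-fold. In the MHC list, 6 rose, 7 fell and 16 were not called of 29. The invariant chain Cd74 rose at least 4.63-fold and the peptide loader H2-DMa at least 1.98-fold, while Cd1d2 fell 2.90-fold and the class I gene H2-K1 at least 1.37-fold.

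Adhesion molecules of the selectin and immunoglobulin classes counted 7 rises, 9 falls and 9 not called of 25. Icam1 read -2.69, -3.12 and -2.91 after 4-OHT and -6.07, -6.55 and -6.80 before it and rose at least 3.41-fold, Jaml rose 2.40-fold and Alcam 2.03-fold. Vcam1 fell at least 3.81-fold, Mcam at least 3.31-fold, P-selectin (Selp) 2.36-fold and Pecam1 2.15-fold. Integrins numbered 17 measured, of which 5 rose, 5 fell and 7 were not called. Of these, 2 rose at least 2-fold, with log2 changes in the list up to 6.11, and are not reported here. Among the others, Itgb5 and Itga4 rose 1.67-fold and 1.49-fold, and Itgae fell 1.93-fold, Itgb7 1.56-fold and Itga6, a progenitor marker, 1.54-fold. Sema3a, a secreted guidance protein, read -2.18, -2.37 and -2.26 after 4-OHT and -6.71, -7.0 and -6.95 before it and rose at least 5.30-fold, while its receptors Nrp1 and Nrp2 fell 1.65-fold and 1.63-fold. Of 16 tetraspanin and Ms4a genes 6 rose, 3 fell and 7 were not called. Ms4a6d rose at least 6.62-fold and Cd82 3.57-fold, while Tspan12 fell 2.56-fold. Among ion channels Kcne3, a potassium channel subunit, read 0.74, 0.37 and 0.42 after 4-OHT and -3.37, -3.35 and -3.40 before it and rose 14.7-fold, and Kcnh5 fell at least 7.17-fold. Of 32 ABC transporters 12 rose, 7 fell and 13 were not called. The neighbouring genes Abca8b, Abca8a, Abca5 and Abca9 rose 5.65-fold, 2.81-fold, 2.47-fold and 1.65-fold. Abca1, which exports cholesterol, read -5.81, -6.35 and -6.20 after 4-OHT and -3.19, -2.74 and -3.24 before it and fell at least 4.07-fold.

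Feedback inhibitors of MAP kinase and receptor tyrosine kinase signals fell more often than they rose, with 3 rises, 8 falls and 8 not called of 19 measured (median -0.25). Dusp2, a phosphatase of ERK, read -0.57, -0.74 and -1.02 after 4-OHT and 1.14, 1.26 and 0.91 before it and fell 3.68-fold. Dusp4 fell 2.98-fold, Spry1 2.53-fold, Spry2 2.5-fold and Dusp1 1.98-fold, while Dusp16 rose 1.59-fold. Of 46 regulators of Ras and Rap 13 rose, 15 fell and 18 were not called. Rgl1 rose 4.74-fold, Rassf6 4.29-fold and Rassf4 3.02-fold, while Sipa1l1, which turns Rap off, fell 3.61-fold and Rin1 at least 3.32-fold. Exchange factors of the Dock and Dbl families gave 15 rises and 13 falls of 39. Dock4, an activator of Rac and Rap, read -0.44, 0.07 and 0.17 after 4-OHT and -6.07, -5.39 and -5.87 before it and rose at least 24.5-fold. Fgd2, an activator of Cdc42 in antigen-presenting cells, rose 4.34-fold and Plekhg1 3.34-fold. Tiam1 fell 3.36-fold, Arhgef28 3.64-fold and Arhgef6 2.40-fold. Among GTPase activating proteins of the Arhgap kind and their relatives 13 rose, 5 fell and 15 were not called of 33, with Chn2, 2.14-fold higher, among the rises and Arhgap22, at least 2.77-fold lower, among the falls.

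Of 9 RGS proteins, which shorten G protein signals, 4 rose, 3 fell and 2 were not called. Rgs18 read -1.06, -1.20 and -1.24 after 4-OHT and -3.79, -3.83 and -3.72 before it and rose 6.12-fold, Rgs10, a brake on microglial activation, rose 4.47-fold, Rgs14 3.63-fold and Rgs19 2.40-fold, while Rgs8 and Rgs11 fell 2.90-fold and 2.84-fold. In the phosphoinositide 3-kinase pathway 8 rose, 6 fell and 14 were not called of 28. The leukocyte catalytic subunits Pik3cd and Pik3cg rose 4.07-fold and 1.76-fold, whereas the general subunits Pik3ca and Pik3cb fell by little, 1.22-fold and 1.20-fold, the second with its other probe going the opposite way. Prkcd, protein kinase C delta, read 4.96, 5.10 and 5.02 after 4-OHT and 2.90, 2.87 and 2.75 before it and rose at least 4.56-fold. Cyclic nucleotide enzymes fell in 14 and rose in 6 of 33 cases (median -0.12). Pde4d and Pde4b, which break down cyclic AMP, fell at least 2.15-fold and 1.71-fold, and the cyclases Adcy6 and Adcy9 that make it 1.80-fold and 1.80-fold. Prkar1b, a regulatory subunit of protein kinase A, rose at least 3.31-fold.

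Lipid handling genes moved both ways, with 15 rises, 20 falls and 16 not called of 51 measured (median -0.11). Among the members that rose, Lpl, lipoprotein lipase, read 5.25, 5.33 and 4.96 after 4-OHT and 2.28, 2.61 and 2.36 before it and rose at least 6.78-fold, Lipa, the lysosomal lipase, rose 3.17-fold, Lrp1, a lipoprotein receptor, 2.41-fold and Fabp4, a fatty acid carrier, at least 2.03-fold. Among the members that fell, Apoc2, an activator of lipoprotein lipase, read -2.26, -1.97 and -2.11 after 4-OHT and -0.24, 0.17 and -0.38 before it and fell 3.91-fold, and the neighbouring Apoc4 fell at least 5.59-fold. Dgat1, which makes triglyceride, fell 3.37-fold, Soat2, which esterifies cholesterol, at least 3.83-fold and Hilpda, a brake on lipolysis, 4.41-fold. Of 40 sphingolipid genes 15 rose, 8 fell and 17 were not called. Gm2a, the activator of ganglioside breakdown, read 1.81, 1.52 and 1.6 after 4-OHT and -4.21, -3.44 and -1.6 before it and rose 26.6-fold. Its log2 change was 4.73 over all arrays and 5.47 without replicate C before 4-OHT, so the fold depends on that array. Acer3, a ceramidase, rose 6.91-fold, Psap, the precursor of saposins, 1.87-fold and Hexa 1.6-fold. Sgms2, which makes sphingomyelin, fell 2.72-fold and Cerk 1.94-fold. In eicosanoid synthesis 8 rose, 10 fell and 13 were not called of 31. Tbxas1, thromboxane synthase, read -0.62, -0.48 and -0.40 after 4-OHT and -4.46, -4.94 and -4.71 before it and rose at least 17.5-fold, and Ptgs1, the constitutive cyclooxygenase, rose 2.17-fold. On the leukotriene side, Ltc4s fell 2.65-fold and Lta4h 2.16-fold, and the prostaglandin D synthase Ptgds fell 2.23-fold.

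Iron and heme genes gave 10 rises and 9 falls of 38. Slc40a1, the iron exporter ferroportin, rose at least 2.03-fold and Hfe 2.16-fold. The copper oxidases Cp and Heph, which work with the exporter, fell at least 5.70-fold and 3.37-fold, and Slc25a37, which carries iron into mitochondria, fell 2.60-fold. Of 48 antioxidant genes 7 rose, 15 fell and 26 were not called. Prdx4, a peroxiredoxin of the secretory pathway, read 2.19, 1.90 and 1.84 after 4-OHT and -0.54, -0.73 and -0.91 before it and rose 6.50-fold, and Ggt5, which cleaves leukotriene C4, rose 10.1-fold. Gstm2 fell 4.32-fold, Me1, an NADPH-forming malic enzyme, 4.17-fold and the cystine carrier Slc7a11 at least 2.78-fold. In serine and one-carbon metabolism 5 rose, 9 fell and 12 were not called of 26. Aldh1l2, which oxidises formyl folate in mitochondria, read -4.92, -4.73 and -5.21 after 4-OHT and -1.41, -1.33 and -1.24 before it and fell at least 12.3-fold. Cth, which makes cysteine, fell 3.62-fold and Psph 1.87-fold. Of 39 genes of the tricarboxylic acid cycle and pyruvate use 5 rose, 13 fell and 21 were not called, with falls of Acss2 (3.34-fold), the lactate carrier Slc16a3 (2.26-fold) and Pdk1 (2.12-fold) and rises of Acss1 (2.10-fold) and Pdk3 (1.79-fold). Beta-oxidation and peroxisome genes fell in 18 and rose in 6 of 54 cases. Acox2 fell 6.36-fold and the carnitine transferase Crat 1.84-fold, while Cpt1a, which admits fatty acids to mitochondria, rose 1.52-fold. Among carriers of amino acids and sugars 6 rose, 13 fell and 16 were not called of 35 (median -0.15). Slc36a2 fell 7.55-fold and Slc43a1 at least 4.96-fold, while Slc7a2, an arginine carrier, rose at least 2.29-fold and the glucose carrier Slc2a6 2.35-fold.

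Of 46 glycosyltransferase genes 11 rose, 15 fell and 20 were not called. Gcnt1, which branches O-linked sugars, had 2 usable arrays after 4-OHT, read 4.02 and 4.05 after 4-OHT and 1.57, 1.57 and 1.67 before it and rose 5.4-fold, and Ndst1, which sulfates heparan, rose 2.70-fold. St3gal6 fell 4.11-fold, B3gnt2 3.37-fold and Mgat5, which branches N-linked sugars, 3.31-fold. In arginine, polyamine and tryptophan metabolism 12 rose, 10 fell and 13 were not called of 35, with rises of Gatm (1.77-fold) and the glutamine synthetase Glul (1.76-fold) and a fall of the endothelial nitric oxide synthase Nos3 (at least 2.65-fold). Autophagy genes gave 7 rises and 11 falls of 37, with Atg12, a conjugated regulator of autophagosome growth, down at least 1.99-fold and Atg16l2 up 1.52-fold. Purine and pyrimidine synthesis genes gave 11 falls and 3 rises of 37, none by 2-fold, among them the adenosine deaminase Ada (1.56-fold) and the ribonucleotide reductase subunit Rrm2 (1.52-fold), both lower.

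Large protein machines had few calls. Of 77 cytosolic ribosomal protein genes 0 rose, 2 fell and 75 were not called, of 73 respiratory chain genes 2 rose, 5 fell and 66 were not called, and of 43 proteasome genes 0 rose, 5 fell and 38 were not called. The 2 ribosomal calls were Rpl3l (1.59-fold) and Rpl27a (1.34-fold). The log2 changes of all 77 ribosomal genes lay between -0.67 and -0.10, with a median of -0.17. Of these ribosomal genes, 70 were saturated on at least 1 of the 6 arrays, as were 44 of the respiratory chain genes and 12 of the proteasome genes. A difference is only a bound there, so small counts of calls in these lists do not show constant levels. The value of a saturated spot also depends on the array's 75th percentile, which is subtracted from it. The shared sign of the 77 ribosomal changes is therefore not read as a fall. Mitochondrial ribosomal proteins gave 12 falls and 3 rises of 75, and aminoacyl-tRNA synthetases 12 and 1 of 38, none by 2-fold. DNA replication genes gave 6 rises, 10 falls and 36 not called of 52, from -0.47 to 0.86 on the log2 scale. Of 45 cyclins, their kinases and inhibitors 8 rose, 10 fell and 27 were not called. Cdkn2b, an inhibitor of Cdk4 and Cdk6, rose 2.35-fold, Cdk6 fell at least 1.83-fold and the phosphatase Cdc25a 1.79-fold.

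Core and linker histone genes gave 18 falls and no rise among 42 measured (median -0.20). Of these genes, 15 were saturated on at least 1 of the 6 arrays, where a difference is only a bound and a rise can be hidden. H2ac6 fell at least 5.99-fold, and the linker histones H1f2 and H1f3 fell 2.77-fold and 2.59-fold. H1f2 read 3.04, 2.95 and 2.84 after 4-OHT and 4.35, 4.57 and 4.32 before it. Probes within the histone clusters are close in sequence, and cross-hybridisation was not tested. Of 84 chromatin writers and erasers 10 rose, 24 fell and 50 were not called (median -0.09). Hdac9, a class IIa deacetylase, read -1.52, -1.57 and -1.51 after 4-OHT and 0.58, 0.72 and 0.68 before it and fell 4.57-fold, Hdac7, of the same class, fell 2.27-fold, and Kdm6b, which removes methyl groups from histone H3, 1.82-fold. Prmt2, an arginine methyltransferase, rose 2.63-fold.

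Membrane traffic and the cell skeleton were among the lists with more rises. Of 49 phagosome, endosome and fusion genes 24 rose, 4 fell and 21 were not called (median 0.28). Anxa6, an annexin of endosomes, read 3.05, 3.22 and 3.38 after 4-OHT and -1.06, -1.09 and -0.98 before it and rose 19.1-fold. Snx20, a sorting nexin of leukocytes, rose 7.16-fold, Snx8 2.77-fold, Snap23, which drives phagosome fusion, 2.31-fold and Anxa1 at least 2.12-fold. Lyst, the regulator of lysosome size mutated in the beige mouse, fell 2.35-fold. Actin nucleation genes counted 24 rises, 8 falls and 27 not called of 59 (median 0.14). Rab GTPases gave 13 rises and 11 falls of 44, led by Rab37 (7.37-fold) and Rab19 (5.19-fold) upwards and Rab44 (2.90-fold) and Rab13 (2.15-fold) downwards. Of 32 kinesins 7 rose, 4 fell and 21 were not called. The neuronal-type motors Kif21b and Kif17 fell 4.64-fold and at least 3.18-fold, and Kif1c and Kif3b rose 2.26-fold and 2.22-fold. Among myosins, tubulins and septins 13 rose, 7 fell and 31 were not called of 51. Myo1f, a myosin of leukocytes, rose 2.59-fold, Tuba1a at least 3.99-fold and Septin6 2.11-fold.

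Interferon-inducible genes moved both ways: over 40 measured, 16 rose, 11 fell and 13 were not called (median 0.20). The p200 genes Ifi205, Ifi204, Ifi202b and Ifi203, whose proteins bind DNA, rose at least 14.7-fold, at least 13.7-fold, at least 7.69-fold and at least 5.04-fold. Ifi204 read -0.49, -0.67 and -0.71 after 4-OHT and -4.52, -4.19 and -4.48 before it. Slfn2, a Schlafen gene of quiescent immune cells, rose 9.12-fold and the guanylate-binding protein Gbp2 5.00-fold. Isg20, a ribonuclease, fell 3.25-fold, Gvin1 2.30-fold, Gbp3 2.10-fold and the classical interferon markers Ifit2 and Ifit3 1.83-fold and 1.74-fold. The p200 and Schlafen genes are copies that lie side by side, and cross-hybridisation was not tested. Of 35 Bcl2 family and caspase genes 13 rose, 9 fell and 13 were not called, and outside the Bcl2a1 copies no call reached 2-fold. Bid, a link from death receptors to mitochondria, rose 1.62-fold and Bcl2l1 1.34-fold, while Bcl2 fell 1.64-fold and the death-promoting Bcl2l11 1.51-fold.

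The same treatment of Hnrnpa0 shRNA cells gave a second set of 6 arrays with cultures of its own. There, 5770 of 15063 genes were called (38.3%), and 4836 of the 6102 called in control cells were called in the same direction in shRNA cells and 3 in the opposite one. Across genes, which are not independent replicates, the log2 changes of the vectors correlated with r = 0.934. The difference between the responses was called for 0 genes in limma, with a lowest adjusted p of 0.282 and 791 genes at an unadjusted p under 0.05. Tgm2 changed by -3.77 in control cells and -3.90 in shRNA cells, Ptprc by 8.94 and 8.50, and Vdr by 5.01 and 4.94. Tnni2, at 6.28 in control cells and 5.33 in shRNA cells, and Plet1, at 5.54 and 4.05, had adjusted p = 0.282 and 0.332 for the difference. The 3 shRNA arrays after 4-OHT and replicate C before it were on slide 3, and shRNA replicates A and B before 4-OHT shared slide 2 with control replicates B and C after it. When slide entered the fit as a fixed block, 2 genes were called for that difference and 1816 had an unadjusted p under 0.05. Hnrnpa0 itself had a log2 change of -0.39 in control cells and did not pass.

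**Figure D5:**
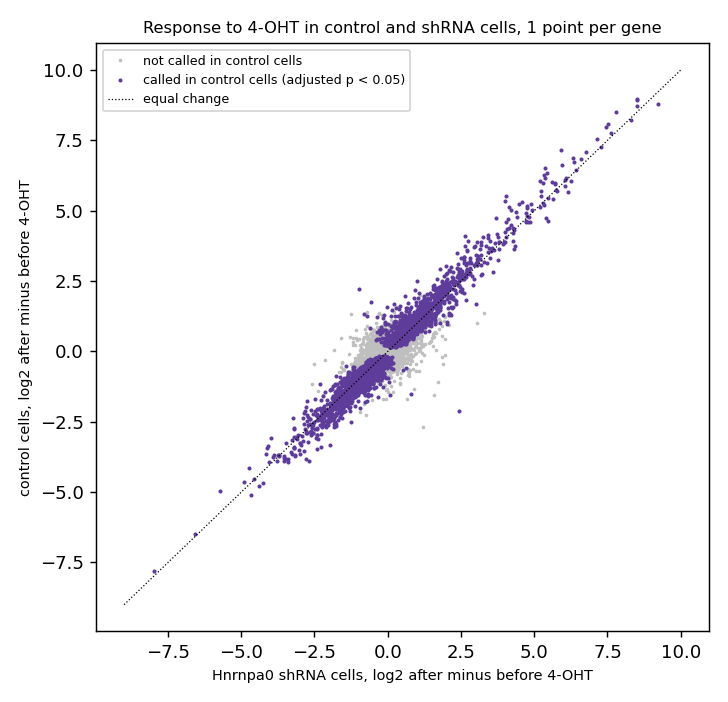
Each point is 1 of 15063 genes; the y axis gives the log2 change after against before 4-OHT in control cells, the x axis the same in Hnrnpa0 shRNA cells, purple points are called in control cells and the dotted line marks equal change. The points run along the dotted line, with r = 0.934 across genes.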

How the data were processed

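Agilent one-colour mouse arrays (design 014868) were read by the authors with Agilent Feature Extraction (9.5.3.1 per the file headers, 9.5 per the submitters' processing notes). Each deposited file gives the Cy3 intensity of every spot on a linear scale, with background subtracted per the file headers and no scaling between arrays. Intensities in the authors' separate value table differ from these by at most 0.495% on any control array.

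From these, log2 intensity was taken less the array's 75th percentile over all non-control spots, spots marked as outliers were left out, and spots of a probe were averaged. A gene was tested on its brightest probe if that was well above background on at least 3 of 12 arrays and present on at least 2 per group. Of 41174 probes, 23075 were named through transcripts, 6582 through a symbol and 3077 through an older symbol in RefSeq; 8440 kept the file's name. One model with a mean for each of the 4 groups was fitted over the 12 arrays with limma 3.58.1 under R 4.3.3, and adjusted p is by Benjamini-Hochberg over 15063 genes. The fit was tested on simulated data. A bound replaces a dim array by the higher of its own signal and the array's lowest signal well above background. Spread is that of 3 arrays per group, and their number limits the precision. Alternatives covered background, scaling, detection filter, slide, replicate letters and each control array left out. Tables and figures were made with data.table (release 1.17.8), Python 3.11.15, pandas 2.3.3 and matplotlib 3.10.9.

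Members and lists were chosen with earlier results of these data known; 9 matches by name alone (such as H13 among histones) were then removed. Named are, per list, up to 6 called rises and 6 falls by fold whose arrays do not overlap and whose brighter group is above background, every gene of lists of up to 12 measured, the 20 largest rises and falls of any gene, 9 genes of the myeloid switch and the knockdown target, and some that did not pass. A few genes that this rule names are not reported here. Promoter letters were read from RefSeq windows of GRCm38.p6, from 250 bases before to 50 after the start.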

Additional observations from a re-analysis of the deposited data

Results flagged for a closer look

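Among the named genes, Adgrv1, a large adhesion receptor, moved in opposite directions in the 2 vectors, with every array of 1 group clear of the other: its log2 change was 0.44 in control cells (adjusted p = 0.0195) and -0.29 in Hnrnpa0 shRNA cells, a difference of 0.74 with adjusted p = 0.674, which did not pass. The call in control cells was lost without replicate C before 4-OHT and without replicate A or B after it. Over all 15063 genes, 23 separated in opposite directions in this way, 11 of them called in control cells. Groups of 3 arrays were not tested for outlying arrays.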

How the results depend on the processing

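Of the 6102 calls, none that kept a value changed sign under any alternative but normexp background correction (28 genes) and the absence of a detection filter (1). A value was kept by 5392 under the demand for signal on all 6 control arrays and by 5837 within slide 1. The alternatives reuse the arrays that made the calls, so shared signs are not independent support. Counts stayed within 1.5 times of the main ones except in these cases. Normexp correction with offset 50 gave 2298 falls and 956 calls of at least 2-fold, and a demand for signal above background on all 6 control arrays gave 1040 calls of at least 2-fold, because genes dark in 1 group are then left out. Slide 1 alone, with a single array after 4-OHT whose spread is assumed to equal that of the others, gave 3351 calls, 1517 higher and 1834 lower. The difference between vectors, with 0 calls, gave 1 under quantile normalization, 2 with slide as a fixed block, 1 with limma trend and between 0 and 1 when 1 control array was left out. Of 410 named genes with a call, 41 lost it within slide 1 and 16 with slide as a fixed block. Of 167 with another probe, 3 had one of opposite direction and 52 one whose change differed by over 1.5 times. Without the detection filter 35.8% of the calls were higher, against 43.1% with it. Leaving out 1 control array gave between 5154 and 6410 calls in all, between 2227 and 2577 higher, between 2927 and 3833 lower, and between 1530 and 1608 of at least 2-fold.

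The replicate letters were not shown to pair the arrays: deviations of same-lettered arrays correlated at 0.26 (A), 0.05 (B) and 0.20 (C), and array B before 4-OHT correlated best with array C after it. With the replicate block 6071 genes were called, 5602 of them shared with the fit without it. With the 75th percentile over unmarked spots only, an alternative chosen after seeing the data, 5182 genes were called, 40.3% of them higher. Probes near background and saturated probes limit the folds, which are then bounds.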
